A study of Mus musculus with 6 samples.

Results

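The Wnt genes examined here were 10 genes taken by symbol from the 21740 genes measured in the luminal epithelium of the mouse uterus, the sheet of cells facing the cavity to which the blastocyst attaches. They were the 5 ligand genes Wnt4, Wnt5a, Wnt7a, Wnt7b and Wnt11, the 3 cell-surface modulators Kremen1, Lgr4 and Lgr5, and 2 intracellular genes, Tcf7l2 and Axin2, which code for a nuclear effector and a feedback inhibitor and are neither ligands nor surface proteins. Of the 10 genes 9 had 1 row on the array and Wnt4 had 2. The study compared wild type mice of a mixed C57BL6/129svj background on gestation day 3.5 (D3.5), when the uterus held free blastocysts, and on day 4.5 (D4.5), when implantation sites were present, with 3 one-colour Affymetrix arrays for each day. Females were 2 to 4 months old and were mated with wild type males. The epithelium was removed as sheets with 0.5% dispase and scraping, and cRNA was made from 1 µg of total RNA. Pooling of animals was not given, nor whether each array stood for a female of its own, so the p-values measure the spread between these arrays, which may be technical.

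Wnt proteins are secreted, lipid-modified ligands. In the canonical pathway they bind a Frizzled receptor together with Lrp5 or Lrp6, the complex that degrades beta-catenin is then held back, and beta-catenin joins factors of the TCF/LEF family at target genes. Other Wnt proteins, Wnt5a and Wnt11 among them, are best known for beta-catenin-independent signalling that shapes cell polarity. In the mouse uterus Wnt7a is an epithelial ligand needed for normal development of the female tract, Wnt4 is needed for the decidual response of the stroma, and Wnt7b has been described in the luminal epithelium.

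The median deposited intensity was 108.6 to 118.4 on the D3.5 arrays and 78.9 to 80.2 on the D4.5 arrays. Levels are given as log2(intensity + 16), quantile normalized, with each day's mean ± SD (n = 3 arrays), and changes are D4.5 minus D3.5 ± SE on the same log2 scale. Epithelial marker genes (8 genes, 1 higher and 2 lower) averaged 10.31 to 10.60 in the D3.5 arrays and 10.33 to 10.57 in the D4.5 arrays. The lists for stroma (8 genes, 7.96 to 8.45 before and 7.42 to 8.75 after implantation), endothelium (5 genes, 6.95 to 7.62 and 6.49 to 7.90), leukocytes (6 genes, 6.93 to 7.17 and 6.91 to 7.48), smooth muscle (5 genes, 6.77 to 7.004 and 6.53 to 6.98) and glands (4 genes, 6.35 to 6.51 and 6.35 to 6.55) overlapped between the days. The part of such cells in the changes below was not tested. No stromal or endothelial marker passed the test, 2 of the leukocyte markers were higher and 1 was lower on D4.5, 1 smooth muscle marker was lower, and of the gland markers 1 was higher and 2 were lower. The SD on D4.5 ran from 0.28 (Hand2) to 1.22 (Dcn) for stromal markers and from 0.39 (Tek) to 1.13 (Emcn) for endothelial ones, which limits that test. The stromal list stood at 8.75, 8.13 and 7.42 in D4.5 replicates 1, 2 and 3. The lists for endothelium (7.90, 7.31 and 6.49), leukocytes (7.48, 7.18 and 6.91) and smooth muscle (6.98, 6.89 and 6.53) fell in the same order. Those for epithelium (10.50, 10.33 and 10.57) and glands (6.35, 6.55 and 6.44) did not. A list of 6 embryo and trophoblast genes had averages from 6.40 to 6.55 before implantation and from 6.09 to 6.21 after it, with 3 lower and none higher. D3.5 replicate 2 stood nearer to the other day than its fellow replicates did. Over the 1278 genes past both criteria without it, its values lay a median of 10.9% of the way to the D4.5 mean, against -3.11% to 4.16% for each other array treated the same way. Equal deposited values were counted over the 19994 genes with 1 row. They occurred 356 to 1092 times between arrays of D3.5, 5 to 24 times between arrays of D4.5 and never between days. The arrays of each day may thus have been processed apart, and this cannot be told apart from the day itself.

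Wnt7b rose steeply after implantation, Kremen1 rose, and Lgr4 and Tcf7l2 fell. The other 6 genes, among them the remaining 4 ligands, Lgr5 and Axin2, did not pass the test. With limma and Benjamini-Hochberg adjustment over all 21740 genes, 4 of the 10 genes had an adjusted p under 0.05, beside 44.4% of all genes, so the number of calls was close to that of genes at large. They divided into 2 higher (18.0% of all genes) and 2 lower (26.4% of all genes). With a change of at least 2-fold as a second criterion 3 of the 10 passed, beside 5.50% of all genes. The 10 genes were chosen with earlier results of these data known, so this share cannot be read as an enrichment. The arrays of the days did not overlap for 6 of the 10, beside 58.6% of all genes. The median change of the 10 genes was -0.16, and that of all genes was -0.07. In bulk RNA, fewer cells of a type and less RNA per cell cannot be told apart.

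**Figure D1:**
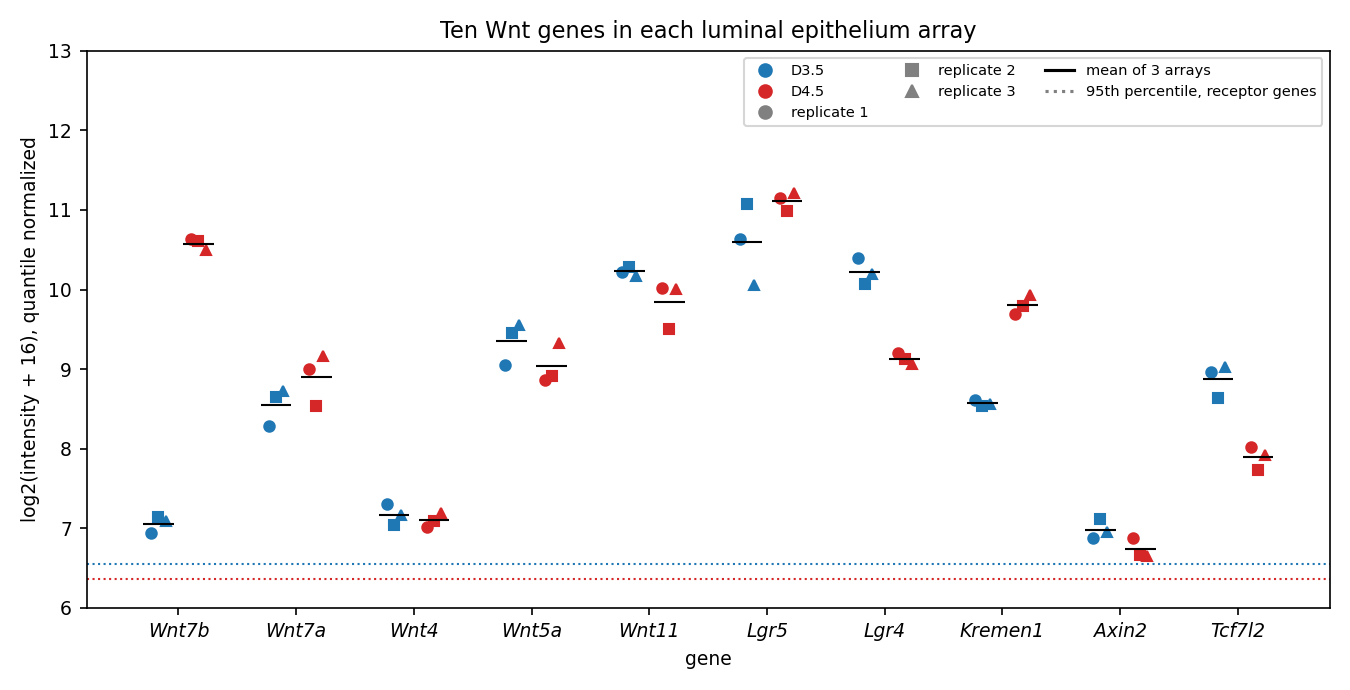
Level of each of the 10 genes, as log2(intensity + 16) after quantile normalization, in the 3 D3.5 arrays (blue) and the 3 D4.5 arrays (red). Marker shapes give the replicate, black bars the mean of a day, and dotted lines the 95th percentile of chemosensory receptor genes on each day (6.56 and 6.37). The days lie 3.35 apart for Wnt7b and overlap for Wnt4, Wnt5a, Wnt7a and Lgr5.

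A background of signal came from 1346 olfactory, vomeronasal, taste and trace amine receptor genes, whose products serve the sense organs. For 95% of them the mean level did not exceed 6.56 (D3.5) and 6.37 (D4.5). All 10 Wnt genes had means above these limits on both days. Axin2 came closest, at 6.98 ± 0.12 on D3.5 and 6.73 ± 0.13 on D4.5. The central 95% of the receptor genes' changes ran from -0.59 to 0.33, and 404 of them passed the adjusted p (78 higher and 326 lower), 3 of them with 2-fold. An adjusted p alone therefore does not set a change within that range apart from this background.

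Among the ligands, Wnt7b was the gene that rose. Its deposited intensity was 129.0, 139.1 and 137.2 in the D3.5 arrays and 1625.7, 1607.9 and 1450.5 in the D4.5 arrays. On the normalized log2 scale it stood at 6.94, 7.14 and 7.09 on D3.5 and at 10.63, 10.61 and 10.49 on D4.5, so that the lowest D4.5 array lay 3.35 above the highest D3.5 array. The rise was 3.52 ± 0.08, or 11.5-fold (adjusted p = 6.38e-06). It was the 17th largest rise and the 23rd largest change in either direction among the 21740 genes. In the alternatives tried the change ran from 3.12, with a constant of 64 in place of 16, to 3.81, with median centring, and all of them passed the test.

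Wnt7a, the closest relative of Wnt7b in the family, did not pass. It stood at 8.29, 8.65 and 8.72 on D3.5 and at 8.996, 8.54 and 9.17 on D4.5. The days overlapped, since D4.5 replicate 2 lay below D3.5 replicates 2 and 3. The change of 0.35 ± 0.18 had a 95% interval from -0.07 to 0.77 (adjusted p = 0.149), which does not reach the lower bound of the interval for Wnt7b (3.33). Without D4.5 replicate 2 the change of Wnt7a was 0.53 and passed (adjusted p = 0.0402), and with median centring it was 0.75 and passed (0.0282). With array weights it was 0.061 (adjusted p = 0.762), and without D3.5 replicate 1 or D4.5 replicate 3 it was 0.22.

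Wnt5a and Wnt11, the ligands best known for beta-catenin-independent signalling, had lower means on D4.5 but did not pass. Wnt5a stood at 9.05, 9.46 and 9.55 on D3.5 and at 8.86, 8.91 and 9.33 on D4.5, with overlapping days. Its change was -0.32 ± 0.17 (95% interval -0.71 to 0.07, adjusted p = 0.158). Without D3.5 replicate 1 it was -0.47 and passed (adjusted p = 0.0425). Wnt11 stood at 10.22, 10.29 and 10.17 on D3.5 and at 10.02, 9.51 and 10.01 on D4.5. The days did not overlap, by a gap of 0.15, and D4.5 replicate 2 was the lowest. The change was -0.38 ± 0.14 (95% interval -0.71 to -0.06, adjusted p = 0.0589), so Wnt11 missed the threshold only after adjustment. Without D4.5 replicate 2 the change was -0.21 and did not pass. With median centring the means of both genes were higher on D4.5, by 0.12 for Wnt5a and 0.11 for Wnt11, again without passing. D4.5 replicate 3 had the lowest stromal marker level (7.42) and the highest D4.5 value of Wnt5a (9.33). The part of stromal cells in the level of Wnt5a was not tested.

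Wnt4 had a pair of rows on the array, and they gave no common answer. The first row stood at 7.71, 7.36 and 7.49 on D3.5 and at 6.64, 6.68 and 6.78 on D4.5. The second row stood at 6.90, 6.72 and 6.85 on D3.5 and at 7.40, 7.50 and 7.59 on D4.5. Taken as the deposited table pairs them, the first row was lower on D4.5 by -0.82 ± 0.10 and the second was higher by 0.67 ± 0.08. The pairing of such rows was not dependable. Over the 1746 genes with several rows, a row's distance from its gene's mean had a correlation of -0.00078 between the days and of at least 0.944 between arrays of a day. With the rows crossed between the days neither change passed (-0.02 ± 0.11 and -0.12 ± 0.08). The mean of both rows, which does not depend on the pairing, was 7.31, 7.04 and 7.17 on D3.5 and 7.02, 7.09 and 7.19 on D4.5. These values overlapped and gave a change of -0.07 ± 0.09 (95% interval -0.28 to 0.14, adjusted p = 0.542).

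**Figure D2:**
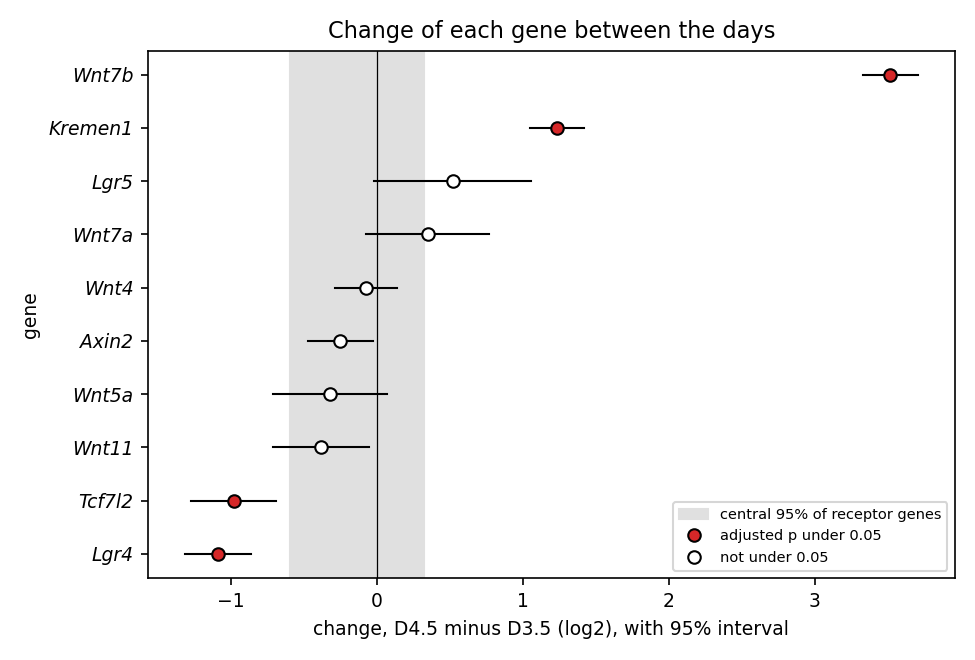
Change of each of the 10 genes, D4.5 minus D3.5, on the log2 scale, with its 95% interval from the limma fit. Filled points had an adjusted p under 0.05. The grey band holds the central 95% of the changes of chemosensory receptor genes, from -0.59 to 0.33, and Wnt7b, Kremen1, Lgr4 and Tcf7l2 have intervals outside it.

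At the cell surface, Kremen1, Lgr4 and Lgr5 tune how strongly a cell can respond to Wnt ligands. Kremen1 is a receptor for Dickkopf proteins that helps to remove Lrp6 from the membrane. It stood at 8.61, 8.54 and 8.56 on D3.5 and at 9.70, 9.79 and 9.93 on D4.5. All D4.5 arrays lay at least 1.08 above the D3.5 arrays. The rise of 1.23 ± 0.08, or 2.35-fold (adjusted p = 4.95e-05), was above the change of 98.1% of all genes. It was 1.67 with median centring and passed in all alternatives tried.

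Lgr4 and Lgr5 are receptors for R-spondins, which protect Wnt receptors from the ubiquitin ligases Rnf43 and Znrf3. Lgr4 stood at 10.40, 10.07 and 10.19 on D3.5 and at 9.20, 9.13 and 9.07 on D4.5. The days did not overlap, with a gap of 0.87. Lgr4 changed by -1.09 ± 0.10, a 2.13-fold fall (adjusted p = 0.000188), and with median centring by -0.61, still past the adjusted p but under 2-fold. The deposited values of D3.5 replicates 1 and 2 for Lgr4 were exactly equal (1111.6). Lgr5, which also marks Wnt-responsive stem cells in the gut, stood at 10.64, 11.08 and 10.06 on D3.5 and at 11.15, 10.99 and 11.21 on D4.5. D3.5 replicate 2 lay above D4.5 replicate 2, and the D3.5 arrays spread more widely (SD 0.51) than for any other of the 10 genes. The change of 0.52 ± 0.23 did not pass (95% interval -0.01 to 1.06, adjusted p = 0.101). Without D3.5 replicate 2 it was 0.77 and passed (adjusted p = 0.0142), without D3.5 replicate 3 it was 0.26 and did not, and with median centring it was 1.07 and passed (0.0122).

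Inside the cell, Tcf7l2 is a DNA-binding partner of beta-catenin. It stood at 8.96, 8.63 and 9.03 on D3.5 and at 8.02, 7.74 and 7.92 on D4.5, with a gap of 0.61 between the days. The change was -0.98 ± 0.12, a fall of 1.97-fold (adjusted p = 0.000894), just short of the 2-fold criterion, and -0.62 with median centring, which still passed the adjusted p. Axin2, a scaffold of the degradation complex and a widely used target of canonical signalling, stood at 6.88, 7.11 and 6.95 on D3.5 and at 6.88, 6.66 and 6.65 on D4.5. The days met within 0.0005, at D3.5 replicate 1 and D4.5 replicate 1. The change of -0.25 ± 0.10 did not pass after adjustment (95% interval -0.47 to -0.03, adjusted p = 0.0671) and lay within the range of the receptor genes. It passed without D3.5 replicate 1 (-0.30, adjusted p = 0.0465), without D4.5 replicate 1 (-0.32, 0.0421), with array weights and in the values as deposited.

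**Figure D3:**
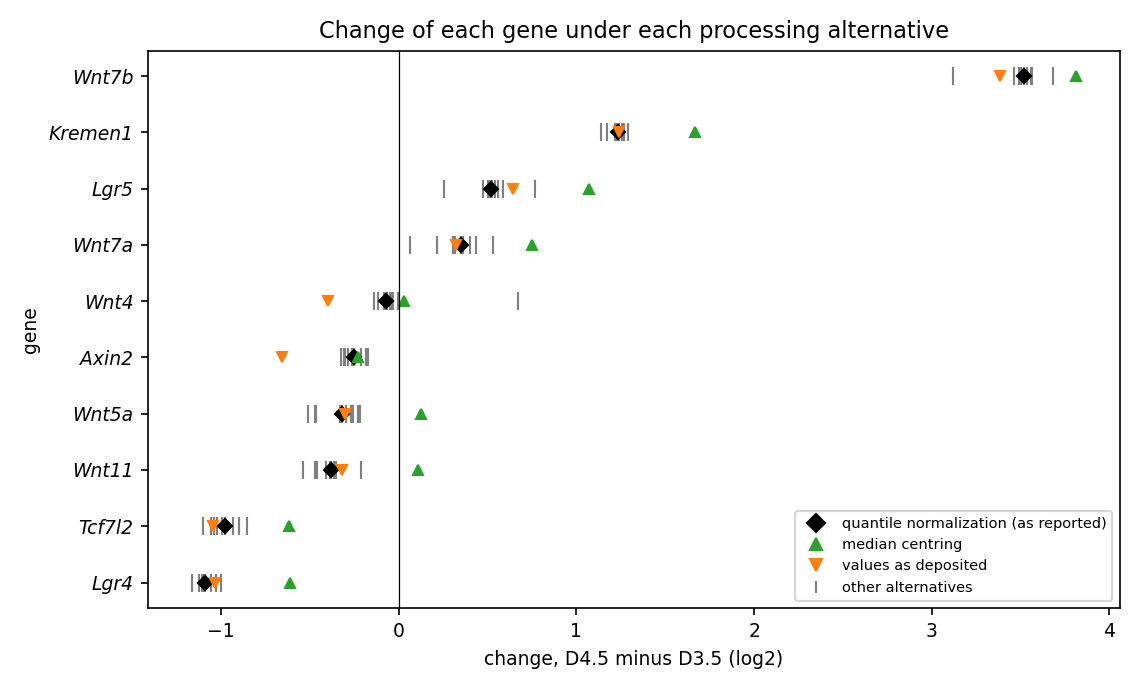
Change of each of the 10 genes, D4.5 minus D3.5 on the log2 scale, as reported (black diamonds) and under other processing. Median centring (green) lies to the right of the reported value for every gene. The values of Wnt7b, Kremen1, Lgr4 and Tcf7l2 keep their side of 0 throughout, as do those of Wnt7a, Lgr5 and Axin2.

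Promoter sequences are shown for Lgr4 and Tcf7l2, the genes that fell and that the RefSeq promoter table holds, for Axin2 as the reference target, and for a start of Wnt11 with a TCF/LEF match. The table (build GRCm38.p6) gave 8 transcript starts for 6 of the 10 genes (Lgr4, Wnt4, Wnt7a, Wnt11, Axin2 and Tcf7l2). Each sequence is the 250 bases before a start, 5′ to 3′ along the gene, and capitals mark a match on either strand to a TCF/LEF core, CTTTGAA or CTTTGAT, or else CTTTGTA or CTTTGTT.
Lgr4, chr2:109917397-109917646, plus strand: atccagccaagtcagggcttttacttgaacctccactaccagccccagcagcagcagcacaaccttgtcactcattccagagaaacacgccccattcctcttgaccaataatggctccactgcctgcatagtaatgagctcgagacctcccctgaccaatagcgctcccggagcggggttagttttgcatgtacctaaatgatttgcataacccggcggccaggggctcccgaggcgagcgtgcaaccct
Axin2, chr11:108920099-108920348, plus strand: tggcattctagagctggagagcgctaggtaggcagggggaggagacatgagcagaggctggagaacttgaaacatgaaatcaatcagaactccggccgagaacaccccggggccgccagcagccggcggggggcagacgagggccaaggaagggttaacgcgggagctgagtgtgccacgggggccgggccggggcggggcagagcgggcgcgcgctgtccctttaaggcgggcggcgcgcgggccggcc
Tcf7l2, chr19:55741560-55741809, plus strand: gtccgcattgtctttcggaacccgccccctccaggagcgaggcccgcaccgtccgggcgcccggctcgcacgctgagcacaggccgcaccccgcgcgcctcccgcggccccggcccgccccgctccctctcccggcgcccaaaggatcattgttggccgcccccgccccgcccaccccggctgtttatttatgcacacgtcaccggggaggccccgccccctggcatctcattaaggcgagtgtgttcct
Tcf7l2, chr19:55895071-55895320, plus strand: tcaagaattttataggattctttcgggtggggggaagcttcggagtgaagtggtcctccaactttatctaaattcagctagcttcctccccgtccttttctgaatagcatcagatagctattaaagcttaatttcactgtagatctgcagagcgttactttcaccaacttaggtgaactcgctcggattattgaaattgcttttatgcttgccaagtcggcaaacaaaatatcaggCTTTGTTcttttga
Wnt11, chr7:98834862-98835111, plus strand: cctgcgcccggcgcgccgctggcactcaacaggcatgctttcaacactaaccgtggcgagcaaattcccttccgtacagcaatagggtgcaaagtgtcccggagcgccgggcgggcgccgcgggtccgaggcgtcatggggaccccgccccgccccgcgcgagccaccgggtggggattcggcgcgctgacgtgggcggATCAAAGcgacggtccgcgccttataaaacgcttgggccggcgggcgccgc
A match was present before 2 of the 8 starts, and before 14.8% of the 32851 starts in the table. The Tcf7l2 match (CTTTGTT) begins 14 bases before the later start, and the Wnt11 match (CTTTGAT on the other strand) 51 bases before its start. These letters were not in the windows before the Lgr4 and Axin2 starts, which says nothing about sites elsewhere. The GC content of the shown windows ran from 40.8% (the later Tcf7l2 start) to 72.8% (the first).

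The genes whose levels across the 6 arrays were most like those of Wnt7b, by root mean square difference over 6 log2 values, were Pcsk6 (0.26), Tmem62 (0.42) and Gpx3 (0.42). Pcsk6, a proprotein convertase, went from 6.99 ± 0.27 to 10.90 ± 0.08. Gpx3, a secreted glutathione peroxidase, went from 7.28 ± 0.26 to 10.90 ± 0.56, with D4.5 values of 10.99, 11.41 and 10.30, a wider spread than that of Wnt7b on D4.5 (SD 0.07). Tmem62 went from 7.17 ± 0.20 to 10.03 ± 0.12.

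The rest of the Wnt pathway was read from 8 lists by role, with 94 of 95 genes measured, the 10 genes included. Of the 94 genes 18 were higher and 33 were lower on D4.5, which is 54.3% called, beside 44.4% of all genes (18.0% higher and 26.4% lower). The median change was -0.20. Scaling moved this balance, to 25 higher and 22 lower with median centring and to 13 and 57 without normalization (deposited values), where the median of all genes stood at -0.40. All genes moved likewise, from 3914 higher and 5737 lower to 6093 and 4264 with median centring, and to 2483 and 13431 unnormalized. The counts of each list below are to be read beside these. By list, the share called ran from 31.6% (ligands) to 75% (nuclear factors), beside 44.4% of all genes. Past 2-fold, 4 were higher and 3 lower, 7.45% of the lists, beside 5.50% of all genes. Of the 84 genes outside the 10, 2 were higher and 2 lower past 2-fold, or 4.76%.

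**Figure D4:**
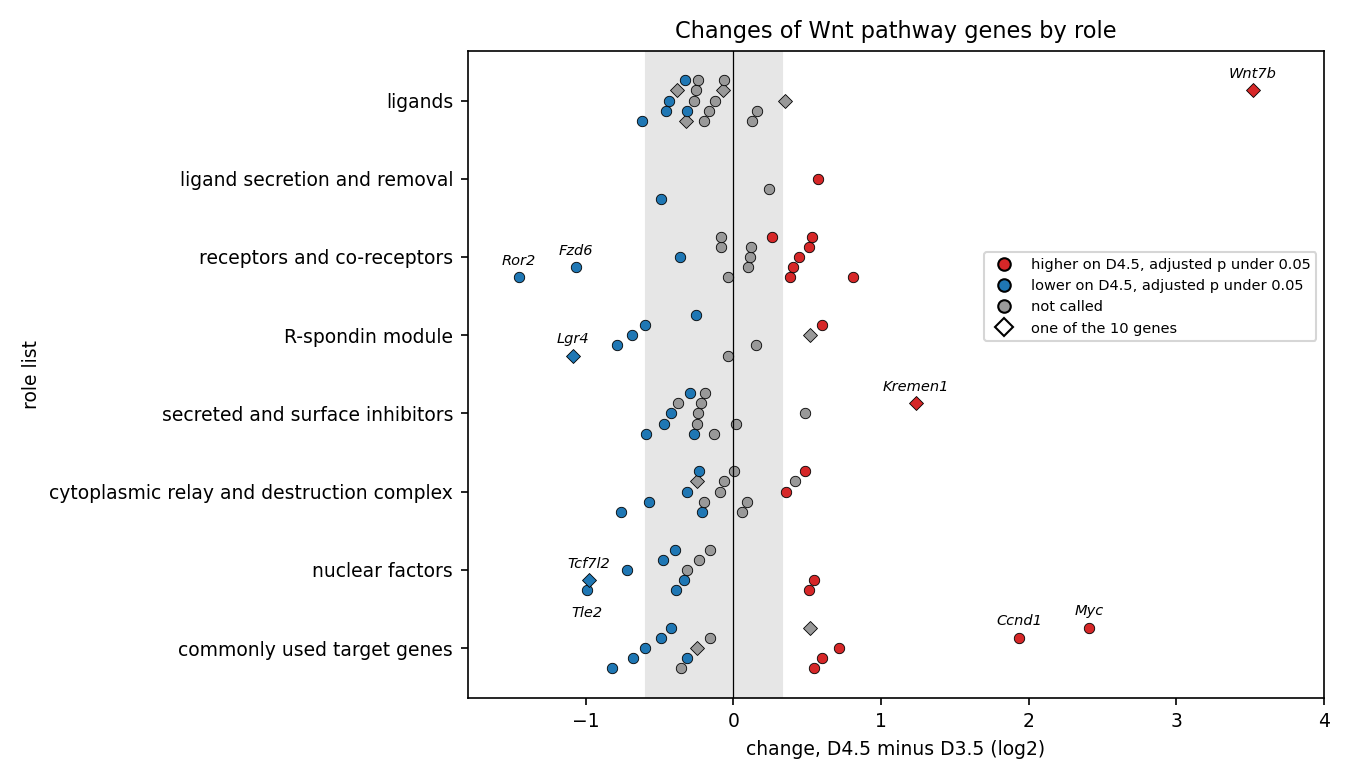
Change of the Wnt pathway genes, D4.5 minus D3.5 on the log2 scale, by role list. Each point is a gene (diamonds are the 10 genes, and a gene in several lists appears in each), coloured by its call, and the grey band is the central 95% of receptor genes. Wnt7b and Kremen1 lie far to the right of their lists, and Lgr4, Ror2 and Fzd6 to the left of theirs.

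Of the 19 ligand genes Wnt7b was higher and 5 were lower (2 and 5 with median centring, 1 and 15 unnormalized). The 5, named after their values were seen, were Wnt1, Wnt3, Wnt3a, Wnt8a and Wnt10a, with changes from -0.62 ± 0.15 for Wnt10a to -0.31 ± 0.07 for Wnt1. All but that of Wnt10a lay within the range of the receptor genes' changes. Wnt1 and Wnt3 did not exceed the receptor gene limit on either day, and Wnt8a (-0.43 ± 0.09), with the smallest p of these, close to it at 6.41 ± 0.03 on D4.5. The call of Wnt3a was lost without D3.5 replicate 1, D4.5 replicate 1 or D4.5 replicate 2 and with a replicate block, and that of Wnt10a without D4.5 replicate 2. Of the 14 ligands outside the 10 genes none was higher and none passed 2-fold. The 5 lower ones among them were 5 with median centring too and 14 unnormalized, again with none higher. Wls, listed under its older symbol Gpr177 and needed to carry Wnt proteins to the cell surface, was higher by 0.57 ± 0.10 (from 9.75 ± 0.13 to 10.33 ± 0.15, adjusted p = 0.00417). Notum, an enzyme that removes the lipid of Wnt proteins, was lower by -0.49 ± 0.13, within the range of the receptor genes' changes. Its call was lost without D4.5 replicate 1 or replicate 2 and with a replicate block. It was also lost with its highest row, a refit that rests on the undependable pairing of rows between the days.

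Among 16 receptors and co-receptors 7 were higher and 3 were lower (7 and 2 with median centring, 4 and 5 unnormalized). Ror2, a receptor tyrosine kinase that binds Wnt5a, had the largest change of this list. It fell from 9.24 ± 0.09 to 7.78 ± 0.07, a change of -1.45 ± 0.08 (adjusted p = 2.23e-05). The Frizzled gene Fzd6, known for its part in planar cell polarity, changed by -1.07 ± 0.18, from 10.10 ± 0.39 to 9.03 ± 0.10. It kept its call but fell short of 2-fold with median centring (-0.58), with array weights (-0.97) and without D3.5 replicate 1 (-0.88). In the other direction Fzd2 rose by 0.81 ± 0.13 and the co-receptor gene Lrp6 by 0.40 ± 0.07.

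In the R-spondin group of 9 genes 1 was higher and 5 were lower (2 and 4 with median centring, 2 and 6 unnormalized). Besides Lgr4, the related receptor gene Lgr6 changed by -0.69 ± 0.11, to 6.56 ± 0.07. The ligand gene Rspo3 changed by -0.79 ± 0.13, to a level under the receptor gene limit. The ubiquitin ligase genes moved apart. Znrf3 changed by 0.60 ± 0.09, from 8.46 ± 0.09 to 9.06 ± 0.13, and Rnf43 by -0.60 ± 0.11, from 8.39 ± 0.14 to 7.80 ± 0.16, without a call for Rnf43 under median centring (-0.29). Among 14 secreted and surface inhibitors Kremen1 alone was higher and 5 were lower, with the same counts under median centring (1 and 11 unnormalized). Dkk4, a Dickkopf inhibitor (-0.59 ± 0.10), and Kremen2, the relative of Kremen1 (-0.47 ± 0.08), were lower. Both changes lay within the range of the receptor genes' changes, and on D4.5 Dkk4 lay under the receptor gene limit.

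Of 15 genes of the cytoplasmic relay and the degradation complex 2 were higher and 5 were lower. With median centring this balance turned to 6 and 1, as the balance of all genes also turned, and it was 2 and 7 unnormalized. Dvl1 (0.49 ± 0.07) and Dvl3 (0.36 ± 0.09), which relay the signal from Frizzled, rose, Dvl3 without a call when D4.5 replicate 2 or 3 was left out. Gsk3b, the kinase that marks beta-catenin for degradation, fell from 10.14 ± 0.15 to 9.38 ± 0.10 (-0.76 ± 0.10, and -0.27 with median centring, adjusted p = 0.0459). The scaffold gene Apc changed by -0.57 ± 0.10, within the range of the receptor genes' changes (-0.10 with median centring, where its call was lost). Of 12 nuclear factors 2 were higher and 7 were lower (2 and 3 with median centring, 0 and 9 unnormalized). Tle2 (-0.99 ± 0.09) and Tle1 (-0.72 ± 0.11, -0.37 and no call with median centring) are co-repressors that bind TCF factors. Tcf7, a relative of Tcf7l2, rose by 0.55 ± 0.13 from under the receptor gene limit on D3.5 (0.10 and no call in the values as deposited), and Pygo2, a co-activator of beta-catenin, by 0.51 ± 0.16. The call of Pygo2 was lost in the values as deposited and without any 1 of the D4.5 arrays, and without D3.5 replicate 1 its change was 0.33.

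Genes commonly used as readouts of canonical Wnt signalling moved both ways. Of 15 such genes, 9 of them held by another of the lists too, 5 were higher and 6 were lower (6 and 3 with median centring, 4 and 8 unnormalized). Myc (2.41 ± 0.16) and the cyclin gene Ccnd1 (1.94 ± 0.16) rose, and Tnfrsf19 (-0.82 ± 0.14) and Rnf43 fell. Axin2 and Lgr5, the members of the list among the 10 genes, did not pass.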

How the data were processed

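RNA was measured on 6 one-colour Affymetrix arrays, 3 for each day. The deposited tables hold linear intensity values per array, per the file headers; which program summarised the probes, the array type and the build were not stated there. The 2 deposited tables agreed on all but 1 of 35556 rows. Values were taken as log2(intensity + 16), quantile normalized over all rows, and averaged over the rows of a symbol (25070 rows, 21740 genes). The days were compared with limma 3.58.1 (lmFit and eBayes, two-sided) in R 4.3.3, Benjamini-Hochberg adjusted over 21740 genes, at 0.05. The fit was tested on simulated data. Tables and figures used Python 3.11.15, pandas 2.3.3 and matplotlib 3.10.9. No detection calls were used, and the number of arrays limits the precision.

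The genes and lists were chosen with earlier results of these data known. Besides the 10 genes, the text names from each role list the genes past both criteria and up to 2 per direction with the smallest p, and the 3 genes most like the gene with the largest change. Tcf7l1 was not matched by symbol. The older symbols Gpr177 and Fam123b stood for Wls and Amer1, and Emr1 for Adgre1. Alternatives were scaling (median centring, or the deposited values left unnormalized), the constant, a level filter, variance model, array weights, a replicate block, the row rule and each array left out; the Wnt4 row pairings were added after seeing the data.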

Additional observations from a re-analysis of the deposited data

How the results depend on the processing

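Wnt7b, Kremen1, Lgr4 and Tcf7l2 kept their direction and their call in all 16 alternatives. Wnt7a, Lgr5 and Axin2 also kept their direction, but passed in some alternatives. Wnt4, Wnt5a and Wnt11 kept neither. With median centring Wnt4 (0.027), Wnt5a (0.12) and Wnt11 (0.11) turned in sign without a call, and Wnt7a (0.75) and Lgr5 (1.07) passed. In the values as deposited Wnt4 (-0.40), Axin2 (-0.66) and Lgr5 (0.64) passed. Array weights gave calls for Wnt5a (-0.51), Wnt11 (-0.54) and Axin2 (-0.31), and moved Wnt7a to 0.061. The Wnt4 row with the highest mean, its second row, gave 0.67, and its first row -0.82, each past the threshold. Both values rest on the deposited pairing of the rows between the days, which was not dependable. With 1 array left out at a time, the change ran from -0.47 to -0.22 for Wnt5a, from 0.22 to 0.53 for Wnt7a, from 0.26 to 0.77 for Lgr5, from -0.32 to -0.18 for Axin2, from -0.47 to -0.21 for Wnt11 and from -0.14 to -0.0046 for Wnt4. The 10 genes held 7 calls in the values as deposited and 7 with array weights, in place of 4. Of all 21740 genes, 15914 were called in the values as deposited and 12390 with array weights, in place of 9651. Calls thus rose over all genes too. Genes above the median level gave 5771 calls among 10870 genes. Under that filter, in which fewer genes are tested, 33 Wnt pathway genes were called, in place of 51. Of the calls 40.6% were higher on D4.5, with 58.8% under median centring and 15.6% unnormalized. Receptor gene calls (404) were 1166 in the values as deposited, 268 with a constant of 64, 8 above the median level and between 204 and 395 with 1 array left out (204 without D4.5 replicate 2, 247 without D4.5 replicate 1 and 261 without D3.5 replicate 3). Other causes were not tested. The labels did not say that equal replicate numbers mark the same animal, so the numbers were not taken to pair samples. Same-numbered arrays had deviations from their day means with correlations of -0.06, 0.06 and 0.10. Between arrays of the 2 days with different numbers these ran from -0.20 to 0.16, so they do not decide the pairing. With a replicate block 8283 genes and 4 of the 10 passed. For the 28 other named pathway genes 419 refits kept the call and 19, of 9 genes, lost it; the 3 genes most like Wnt7b kept it in all 48. With median centring the changes of Wls (1.07), Znrf3 (1.01), Dvl1 (0.87), Lrp6 (0.82) and Dvl3 (0.82) were over 1.5 times the reported ones, and that of Tnfrsf19 was smaller (-0.52), all still called. Brightness near the receptor gene level limits what Axin2 and Wnt4 can show, and bears on the D3.5 level of Wnt7b (7.06).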
